A study of Homo sapiens with 96 samples.

Results

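The genes described here encode the subunits of the proteasome, the barrel-shaped protease complex that degrades ubiquitin-tagged proteins. They were chosen by symbol, as the families PSMA, PSMB, PSMC, PSMD and PSME followed by a number. Of 60675 genes in the deposited table, 43 matched, and 41 held at least 100 counts over all 96 libraries and were kept. PSMA8, with 1 count, and PSMB11, with 20 counts, were dropped. All 41 passed the filter on low counts in both batches.

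The core particle stacks rings of alpha subunits (PSMA), which gate the entrance, on rings of beta subunits (PSMB), some of which cut proteins. A regulatory particle caps the core: its base unfolds the substrate with a ring of ATPases (PSMC) and its lid removes the ubiquitin chain (PSMD). Alternative activators (PSME) can replace that cap, and interferon-inducible beta subunits can replace the usual catalytic ones to form the immunoproteasome, which generates peptides for antigen presentation. When proteasome activity falls short, the transcription factor NRF1 (gene NFE2L1) is known to raise the subunit genes together.

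A549, an established human lung adenocarcinoma line, was profiled by RNA sequencing after exposure to Paeoniae Radix (peony root) preparations. The first batch comprised the ethanol extract and the water extract, each at 20, 100 and 500 µg/mL, with its own vehicle group. The second comprised paeoniflorin, albiflorin, hederagenin, oleanolic acid, catechin, gallic acid, paeonol and benzoic acid, each at 0.4, 2 and 10 µM, with a vehicle group of its own. All 32 groups held 3 libraries. Every group is the same unmodified line. The sources used here give neither the exposure time nor the kind of vehicle, nor do they state that replicates came from separate cultures, so p-values reflect library-to-library spread that could be purely technical.

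Library totals were 17.9 to 28.1 M counts for the extract batch and 15.7 to 35.6 M for the ingredient batch. All 8 epithelial markers on the A549 list passed the filter in both batches, and none of the 3 endothelial and 3 leukocyte markers did. Of 6 fibroblast markers, 4 passed with the extracts and 5 with the ingredients, and 1 of 3 muscle markers passed in each batch. Summed fibroblast markers were 63.3 to 68.9 CPM in extract-batch vehicle libraries and 47.8 to 54.6 CPM in ingredient-batch vehicle libraries. The sum reached 64.2 CPM in treated extract libraries and 1230 CPM in treated ingredient libraries. In the second batch, 16 of the 72 treated libraries, spread over 14 groups, drew less than 5% of their counts from mitochondrially encoded genes, against 14.5 to 14.9% in the vehicle libraries. In the same batch, 4 treated libraries (gallic acid at 0.4 and 2 µM replicate 1, catechin at 2 and 10 µM replicate 2) held 496 to 595 CPM of the fibroblast collagen gene COL1A2. Results that rest on these libraries are given with and without them.

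Promoter stretches of 8 members are shown, chosen because they hold a site marked below upstream of the start. They are 6 genes among those that fell most with the ethanol extract, and 2 members with an interferon-type site, PSMB10 and PSME2. PSME3, PSMD1 and PSMD11 fell further than PSMA4, PSMC5 and PSMD12 but are not shown. They hold no antioxidant response or ETS core upstream of the start. The stretches are RefSeq sequences (GRCh38.p14), printed 5′ to 3′ on the gene's own strand, and each ends at or before the last base upstream of the annotated start. In the first set the capitals mark the core of an antioxidant response element, TGACNNNGC on either strand, the kind of site that NRF1 and its relatives bind. PSMD5 (chr9:120843023-120843081, minus strand), PSMC5 (chr17:63827639-63827697, plus), PSMA4 (chr15:78540635-78540693, plus) and PSMD12 (chr17:67366709-67366767, minus) each hold one.
PSMD5: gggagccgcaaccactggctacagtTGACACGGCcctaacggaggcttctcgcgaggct
PSMC5: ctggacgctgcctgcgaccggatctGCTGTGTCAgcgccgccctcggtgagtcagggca
PSMA4: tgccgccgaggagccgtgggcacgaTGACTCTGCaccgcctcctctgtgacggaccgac
PSMD12: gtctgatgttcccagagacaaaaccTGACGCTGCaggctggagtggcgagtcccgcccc

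In the second set the capitals mark the ETS core CCGGAAG on either strand, in PSMD6 (chr3:64023500-64023556, minus) and PSMC2 (chr7:103347595-103347642, plus).
PSMD6: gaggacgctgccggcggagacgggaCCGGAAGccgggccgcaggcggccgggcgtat
PSMC2: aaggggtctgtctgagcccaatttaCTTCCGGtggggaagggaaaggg

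In the third set the capitals mark the core of an interferon-stimulated response element, GAAA and GAAA with 2 bases between them, on either strand, in PSMB10 (chr16:67936851-67936896, minus) and PSME2 (chr14:24146611-24146663, minus).
PSMB10: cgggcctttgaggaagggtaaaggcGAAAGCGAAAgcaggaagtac
PSME2: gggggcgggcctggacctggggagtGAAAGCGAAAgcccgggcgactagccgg

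Windows from 250 bases before to 50 after the start were held for 36 of the 41 members (43 windows) and for 35116 windows over all genes. The antioxidant response core was in 30.2% of the members' windows and in 13.3% of all windows. The ETS core was in 27.9% and 10.3%, and the interferon-stimulated core in 14% and 3.57%. The interferon-stimulated core lay in the windows of PSMA4, PSMB4, PSMB8, PSMB10, PSME1 and PSME2. The CCAAT box was in 41.9% of the members' windows and in 34.6% of all windows, the GC box GGGGCGG in 41.9% and 30.8%, the E-box CACGTG in 6.98% and 7.26%, and TTCNNNGAA, the core of a gamma-activated site, in 16.3% and 7.66%. The 7 motifs were searched on both strands, and their matches can overlap. Of the 29 members with a window that were lower with the ethanol extract at 500 µg/mL 10 held the antioxidant response core, as did 3 of the 7 that were not. The interferon-stimulated core was in 3 of the 29 and 3 of the 7, and the ETS core in 11 and 1. These are letter matches and no binding was measured.

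In the vehicle cells of the first batch the members spanned a wide range of levels per kilobase of exon. PSMB3 (103 CPM per kb) and PSMB6 (96.3 CPM per kb) were highest, and the immunoproteasome subunits PSMB10 (2.93 CPM per kb), PSMB8 (1.89 CPM per kb) and PSMB9 (1.76 CPM per kb) were lowest. Exons of PSMA1, PSMA2, PSMA6, PSMB9, PSMB10, PSMD9 and PSME2 overlap another gene on the same strand, so their counts are uncertain. Exons of 16 members overlap a gene on the opposite strand, and the sources used here do not state if counting used strand. Named pseudogenes held over 5% of the parent's counts only for PSMC1, at 7.58%.

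With the ethanol extract at 500 µg/mL, RNA of most proteasome subunit genes fell together. These are relative RNA levels, and no protein or complex was measured. Relative to vehicle, 33 of the 41 members were lower, 1 was higher and 7 did not pass the test, where 34.4% of the 16854 genes tested were called lower and 34.7% higher (edgeR quasi-likelihood test, Benjamini-Hochberg adjusted p under 0.05). The members' median log2 change was -0.49, and that of all tested genes was 0.00. Summed over the 41 genes, the level was 3199, 3275 and 3168 CPM in ethanol-treated libraries and 4634, 4812 and 4573 CPM in vehicle libraries, a fall of 31.2% in the mean. In bulk RNA, fewer cells expressing a gene and less of its RNA per cell cannot be told apart. Between these groups the A549 epithelial markers also differed: all 8 were lower, with a median log2 change of -0.53. Their summed level was 8744 to 8861 CPM in ethanol-treated libraries and 14116 to 15114 CPM in vehicle libraries, and their part in the result was not tested. Mitochondrially encoded shares were 15.9 to 17.7% with the ethanol extract and 16.9 to 22.1% in vehicle.

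**Figure D1:**
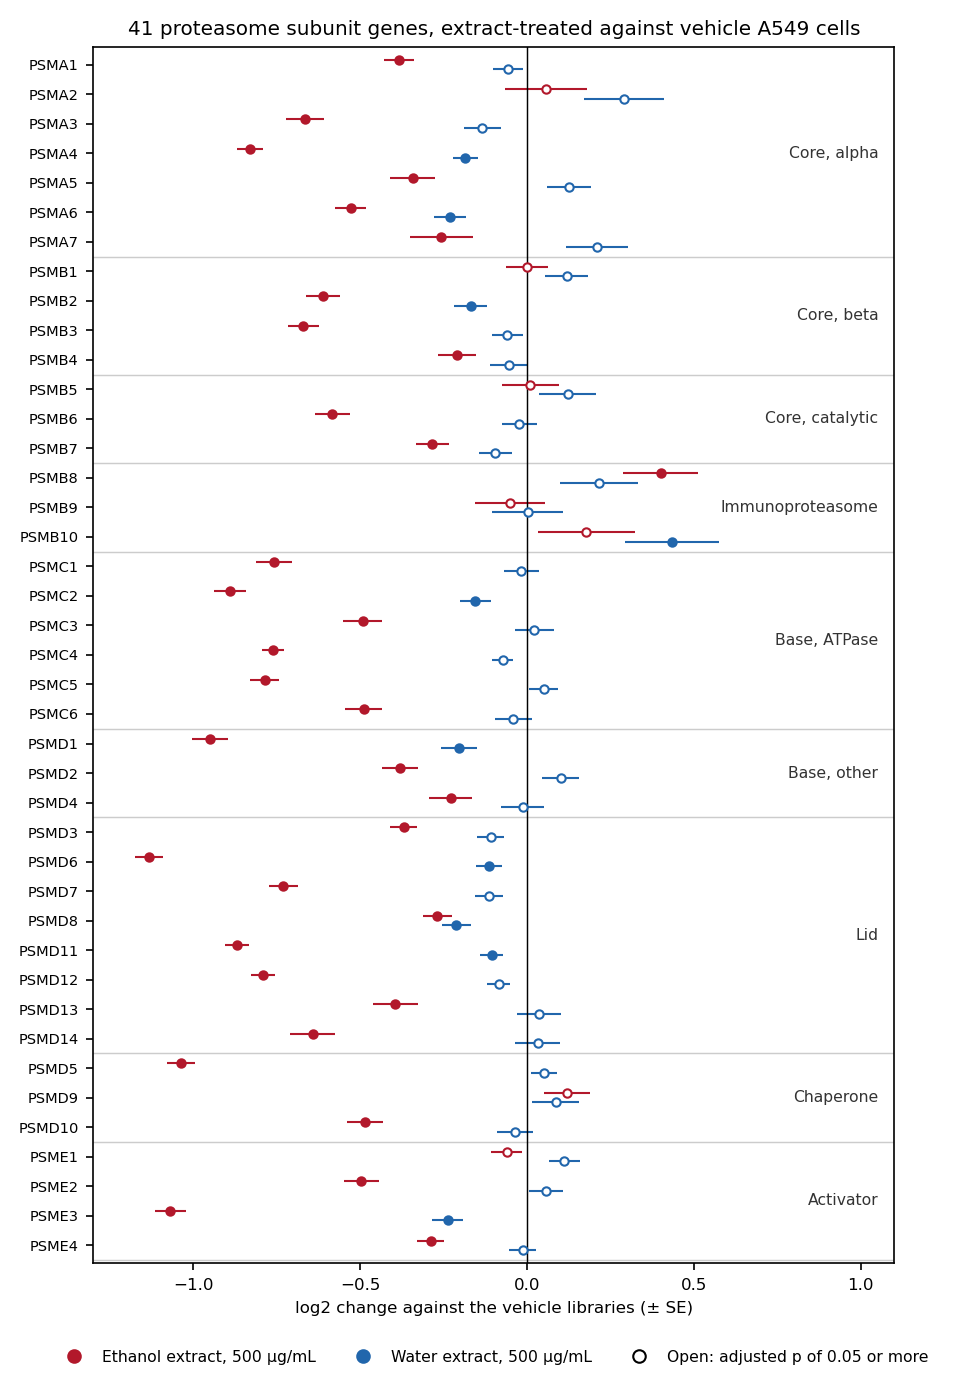
Log2 change (± SE, 3 libraries per group) of each proteasome subunit gene for the ethanol extract (red) and the water extract (blue) at 500 µg/mL against vehicle, grouped by role, with open points where the adjusted p was 0.05 or more. With the ethanol extract all 8 lid genes and all 6 ATPase genes lie left of 0, while PSMB8 lies right of it; with the water extract the values stay between -0.24 and 0.43.

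RNA levels of the lid genes fell throughout. All 8 lid genes were lower with the ethanol extract, with a median log2 change of -0.69. PSMD6, a structural lid subunit, had 22.4, 21.8 and 22.8 CPM in ethanol-treated libraries, against 48.8, 47.2 and 51 CPM in vehicle libraries. The groups lay far apart, and the change of -1.13 ± 0.042 (log2, SE, adjusted p = 8.49e-17) was the largest fall of any member. PSMD11 had 135, 139 and 136 CPM against 255, 240 and 253 CPM (-0.87 ± 0.035, adjusted p = 5.76e-16). PSMD12 had 59.9, 61.5 and 58.4 CPM in ethanol-treated libraries and 106, 103 and 102 CPM in vehicle libraries (-0.79). The deubiquitinase PSMD14, which cuts the ubiquitin chain off the substrate, fell by 0.64 on the log2 scale, and PSMD7, its partner in the lid, fell by 0.73. The smallest lid changes were those of PSMD13 (-0.40), PSMD3 (-0.37) and PSMD8 (-0.27), all past the test.

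The base followed. All 6 ATPase genes were lower, with a median log2 change of -0.76 and a range from -0.89 to -0.49. PSMC2 had 45.5, 46.8 and 43.3 CPM in ethanol-treated libraries, against 81.9, 91.4 and 78.5 CPM in vehicle libraries (-0.89 ± 0.049, adjusted p = 1.1e-13). PSMC5 and PSMC4 fell by 0.79 and 0.76 on the log2 scale, and PSMC1, whose pseudogenes take part of its reads, by 0.76. Among the 3 other base genes, the scaffold PSMD1 had 129, 135 and 131 CPM against 241, 291 and 231 CPM in vehicle (-0.95 ± 0.054, adjusted p = 2.16e-13). The groups did not overlap, though vehicle replicate 2 stood above the other vehicle libraries. The second scaffold, PSMD2, fell by 0.38 and the ubiquitin receptor PSMD4 by 0.23 on the log2 scale.

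The chaperones that assemble the base split. PSMD5 had 35.7, 36.6 and 34.5 CPM in ethanol-treated libraries and 77.2, 70.3 and 71.6 CPM in vehicle libraries (-1.04 ± 0.042, adjusted p = 4.94e-16). PSMD10, known as gankyrin, fell by 0.49 on the log2 scale. PSMD9 had 37.1, 36.2 and 33.9 CPM with the ethanol extract, against 31, 36.6 and 31.2 CPM in vehicle; these overlap, and its change of 0.12 (95% interval -0.03 to 0.27) did not pass the test.

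In the core, of the 7 alpha genes 6 were lower (median log2 change -0.38), led by PSMA4 with 112, 117 and 112 CPM in ethanol-treated libraries against 202, 208 and 196 CPM in vehicle libraries (-0.83). PSMA3 fell by 0.66 and PSMA6 by 0.53 on the log2 scale. PSMA2 did not pass (0.06, 95% interval -0.20 to 0.31), and PSMA7 passed with libraries that overlap vehicle (-0.26, adjusted p = 0.0188). Of the 4 structural beta genes PSMB2, PSMB3 and PSMB4 were lower (-0.61, -0.67 and -0.21), and PSMB1 had a mean of 58.7 CPM in both groups.

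The catalytic genes did not move alike. PSMB6, which carries the caspase-like activity, had 90.9, 95 and 93.1 CPM in ethanol-treated libraries, against 133, 150 and 135 CPM in vehicle libraries (-0.58 ± 0.053, adjusted p = 8.93e-10). PSMB7, the trypsin-like subunit, had 98, 97.7 and 95.8 CPM against 115, 116 and 125 CPM in vehicle (-0.28, adjusted p = 1.8e-05). PSMB5, the chymotrypsin-like subunit and the main target of proteasome inhibitor drugs, had 102, 104 and 92.5 CPM with the ethanol extract and 94.3, 111 and 91.1 CPM in vehicle. The PSMB5 libraries overlap, and the change of 0.01 had a 95% interval of -0.17 to 0.18 (adjusted p = 0.928).

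The 3 immunoproteasome genes, which take the places of PSMB5, PSMB6 and PSMB7, included 1 called higher and 0 called lower. PSMB8 had 7.80, 6.80 and 7.82 CPM in ethanol-treated libraries, all above the 5.40, 5.62 and 5.97 CPM of vehicle libraries (0.40 ± 0.11, adjusted p = 0.00305). PSMB9 had 5.40, 4.35 and 5.88 CPM with the ethanol extract, against 4.81, 5.62 and 5.84 CPM in vehicle. PSMB10 had 5.82, 7.08 and 5.42 CPM with the ethanol extract, against 4.97, 6.32 and 5.01 CPM in vehicle. Neither PSMB9 (-0.05, adjusted p = 0.698) nor PSMB10 (0.18, adjusted p = 0.278) passed, and both sets of libraries overlap.

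Set against the constitutive partner in the same library, and not corrected for length, PSMB9 stood at 5.94, 4.58 and 6.32% of the PSMB6 level in ethanol-treated libraries and at 3.62, 3.75 and 4.33% in vehicle libraries. The 2 groups do not overlap, and the exact 2-sided permutation test gave p = 0.1, the smallest that 3 against 3 allows (adjusted p = 0.514 over 18 ratio tests). PSMB8 stood at 7.65, 6.54 and 8.45% of PSMB5 against 5.73, 5.06 and 6.55% in vehicle, which overlap (exact permutation p = 0.2). PSMB10 stood at 5.94, 7.25 and 5.66% of PSMB7 in ethanol-treated libraries and at 7.19, 6.28 and 6.25% in water-treated libraries at 500 µg/mL, against 4.32, 5.45 and 4.01% in vehicle libraries. Both extracts lay above vehicle without overlap (exact permutation p = 0.1 and adjusted p = 0.514 for each).

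Among the activators, PSME3, the nuclear PA28 gamma, fell most. It had 135, 141 and 143 CPM in ethanol-treated libraries, against 298, 273 and 308 CPM in vehicle libraries (-1.07 ± 0.048, adjusted p = 2.6e-15). The interferon-inducible pair PSME1 and PSME2 form one ring together, and 1 of them passed the test. PSME2 had 39.4, 41 and 39.2 CPM against 54.4, 59.3 and 55.3 CPM in vehicle (-0.50, adjusted p = 1.78e-08). PSME1 had 54.4, 57.8 and 54.2 CPM against 57.4, 57.2 and 59.1 CPM in vehicle, which overlap (-0.06, adjusted p = 0.243). PSME4, the PA200 activator, had 114, 122 and 121 CPM against 145, 150 and 141 CPM in vehicle (-0.29, adjusted p = 1.29e-06).

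**Figure D2:**
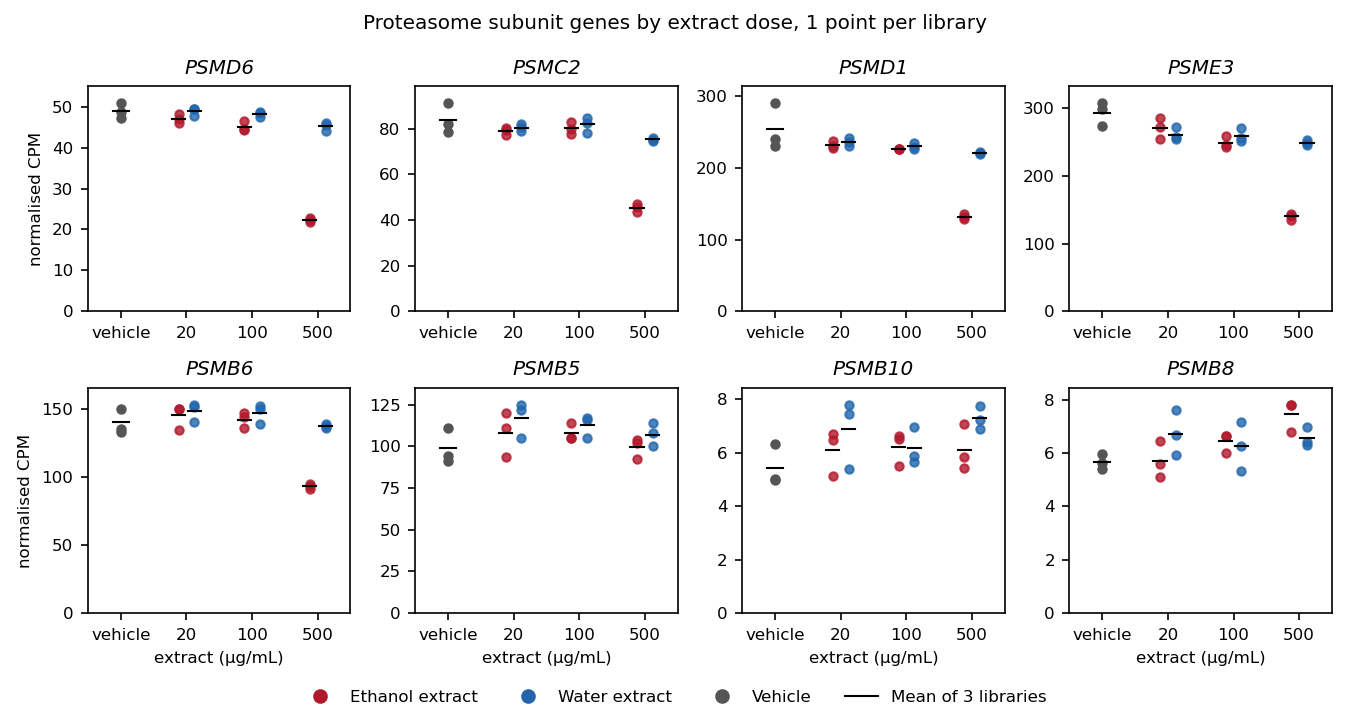
Normalised CPM of 8 subunit genes in each first-batch library, by extract dose in µg/mL, for ethanol extract (red), water extract (blue) and vehicle (grey), with black bars at the mean of 3 libraries. For PSMD6 the ethanol-treated libraries at 500 µg/mL sit between 21.8 and 22.8 CPM, under every other library, while for PSMB5 those at the same dose lie among the vehicle libraries.

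The fall was a feature of the highest ethanol dose. Against the ethanol extract at 20 µg/mL, the extract at 500 µg/mL had 33 members lower and 1 higher, PSMB8 (0.39), where 33.5% of all genes were lower and 34% higher. PSMD6 (-1.08), PSMD5 (-0.99), PSME3 (-0.95) and PSMC5 (-0.88) showed the largest falls in that comparison. The summed level was 4495 to 4730 CPM at 20 µg/mL, 4552 to 4675 CPM at 100 µg/mL and 3168 to 3275 CPM at 500 µg/mL of ethanol extract, beside 4573 to 4812 CPM in vehicle.

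At 100 µg/mL of ethanol extract against vehicle, 4 members were lower and 1 higher, where 9.23% of all genes were lower and 8.26% higher. PSME3 had 243, 245 and 259 CPM, against 298, 273 and 308 CPM in vehicle (-0.23, adjusted p = 0.00127). PSMD1 (-0.17), PSMA4 (-0.14) and PSMD6 (-0.12) were lower and PSMB1 was higher (0.19). The replicate numbers pair these libraries by the check on their deviations, and with the replicate number as a block 12 members passed. The count was 3 without ethanol replicate 1, 2 without ethanol replicate 2, 3 without vehicle replicate 1 and 9 without vehicle replicate 2.

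At 20 µg/mL of ethanol extract, 0 members passed in edgeR, where 7.45% of all genes did. An unadjusted p under 0.05 was reached by 13 members, where 3645 of the 16854 genes tested reached it, and DESeq2 called 2 members. The count was 3 without ethanol replicate 3, and 1, 1 and 2 without vehicle replicates 1, 2 and 3.

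The water extract at 500 µg/mL changed fewer members, and by less. Relative to vehicle 9 were lower and 1 higher, where 11.4% of all genes were lower and 9.70% higher, and the members' median log2 change was -0.02. PSME3 had 245, 249 and 253 CPM in water-treated libraries, all under the 298, 273 and 308 CPM of vehicle libraries (-0.24 ± 0.046, adjusted p = 0.000879). PSMA6 had 109, 112 and 108 CPM against 123, 143 and 120 CPM (-0.23, adjusted p = 0.00131). PSMD8 had 226, 221 and 243 CPM against 261, 257 and 280 CPM in vehicle (-0.21, adjusted p = 0.00141). PSMA4, PSMD1, PSMB2, PSMC2, PSMD6 and PSMD11 were lower by 0.19, 0.20, 0.17, 0.16, 0.12 and 0.11 on the log2 scale.

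PSMB10 was the member that rose with the water extract. It had 7.76, 7.22 and 6.88 CPM in water-treated libraries, all above the 4.97, 6.32 and 5.01 CPM of vehicle libraries (0.43 ± 0.14, adjusted p = 0.0325). PSMB8 (0.21), PSMB9 (0.00), PSMB5 (0.12), PSMB6 (-0.02), PSMB7 (-0.10), PSME1 (0.11), PSME2 (0.06) and PSME4 (-0.01) did not pass. Without water replicate 2 the count was 5 members, all lower. With the replicate number as a block it was 16.

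PSME3 was lower in 5 of the 6 extract groups, all read against the same 3 vehicle libraries. Its log2 change was -0.17, -0.18 and -0.24 with the water extract at 20, 100 and 500 µg/mL. With the ethanol extract it was -0.12 (not past, adjusted p = 0.136), -0.23 and -1.07 at the same doses.

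At 100 µg/mL of water extract, PSMA7 (0.30) and PSMD2 (0.18) were higher and PSME3 and PSMA4 (-0.12) lower, where 5.58% of all genes were higher and 6.98% lower. This count of 4 was 1, 10 and 2 without vehicle replicates 1, 2 and 3, and 0 without water replicate 1 or replicate 2. At 20 µg/mL, PSMA2 (0.38), PSMD2 (0.22), PSMA5 (0.21) and PSMC5 (0.14) were higher and PSME3 lower, where 4.26% of all genes were higher and 5.25% lower. This count of 5 was 1, 10 and 0 without vehicle replicates 1, 2 and 3, and 1, 0 and 8 without water replicates 1, 2 and 3. Between 500 and 20 µg/mL of water extract 1 member passed, PSMA6 (-0.18, adjusted p = 0.0433), where 2.05% of all genes did. Same-numbered libraries deviated together here as well, 3 members passed with the block, and PSMA6 did not pass without any single library of the 6.

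**Figure D3:**
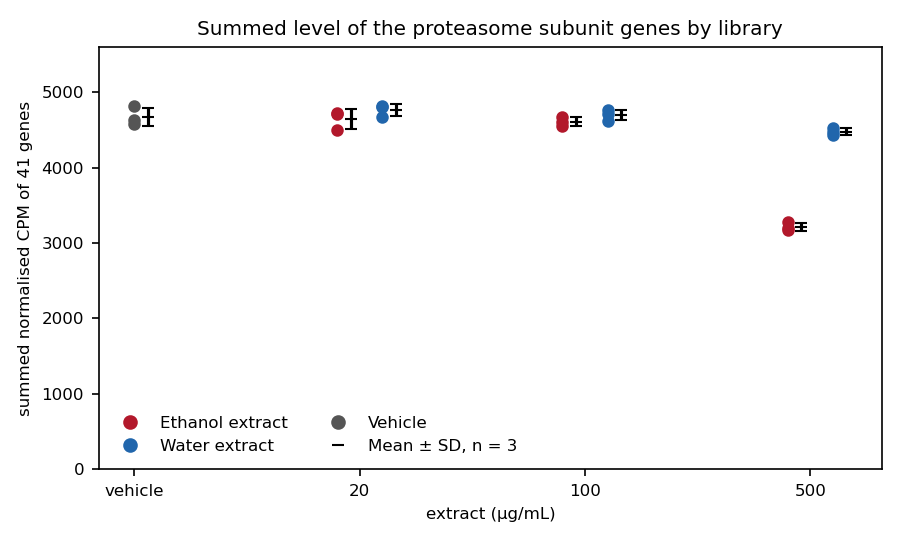
Summed normalised CPM of the 41 proteasome subunit genes in each first-batch library by extract dose in µg/mL, with black bars for the mean ± SD of 3 libraries. The ethanol-treated libraries at 500 µg/mL sit between 3168 and 3275 CPM, and every other library lies at 4431 CPM or more.

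The extracts themselves were compared at matched dose. At 500 µg/mL, 33 members were lower with the ethanol than with the water extract and 0 were higher, where 33.3% of all genes were lower and 32.7% higher. The members' median log2 difference was -0.47. PSMD5 had 35.7, 36.6 and 34.5 CPM with the ethanol extract, against 76.4, 74.6 and 76 CPM with the water extract (-1.09 ± 0.042, adjusted p = 2.26e-16). PSMD6 had 22.4, 21.8 and 22.8 CPM against 46.1, 45.5 and 44.1 CPM (-1.02). PSMC5 (-0.84) and PSME3 (-0.83) came next, and for all 4 genes the libraries of the 2 extracts were apart. At the lower doses 0 members passed in edgeR: at 100 µg/mL 1.77% of all genes differed, and at 20 µg/mL 0.0% did. At an unadjusted p under 0.05 there were 2 members at 100 µg/mL and 3 at 20 µg/mL. Of the 16854 genes tested 2120 and 735 reached it at these doses. DESeq2 called 0 members at both.

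Genes that work with the proteasome were read from lists of partners, with counts and medians over each list's tested genes. Of the 3 subunits and receptors with other symbols, all were lower with the ethanol extract at 500 µg/mL: the ubiquitin receptor ADRM1 (-0.90), the inhibitor PSMF1 (-0.37) and the small lid subunit SEM1 (-0.19). ADRM1 (-0.22) and PSMF1 (-0.19) were also lower with the water extract. Of 12 tested ubiquitin enzymes and shuttles 10 were lower and 1 higher with the ethanol extract, where 34.4% of all genes were lower and 34.7% higher. Among the lower ones were the shuttle UBQLN1 (-1.18, adjusted p = 3.92e-18), the deubiquitinase USP14 (-0.64), the ligase UBE3A (-0.56) and UBQLN2 (-0.47). Of the same 12, 7 were lower with the water extract, where 11.4% of all genes were, among them TXNL1 (-0.19), RAD23B (-0.17) and UBQLN1 (-0.15).

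Of 6 listed assembly chaperones with other symbols, PSMG1 (-1.005), PAAF1 (-0.58) and POMP (-0.45) were lower and PSMG4 (0.56) higher with the ethanol extract. These shares are to be read beside the same 34.4% and 34.7% of all genes. PSMG1 (-0.38) was lower with the water extract. Of the 6 genes for ubiquitin and its activation, 2 were lower and 1 higher with the ethanol extract, with a median log2 change of 0.09. The share called lower was near the 34.4% of all genes. The lower ones were the activating enzyme UBA1 (-0.66) and the polyubiquitin gene UBB (-0.56). UBA1 (-0.25) and UBB (-0.20) were lower with the water extract too, where 11.4% of all genes were.

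Of the 9 genes of NRF1 control 3 were higher and 4 lower with the ethanol extract, shares near the 34.7% and 34.4% of all genes. NFE2L1 itself was higher (0.46 ± 0.042, adjusted p = 1.04e-09), as was SEL1L (0.45) of the ligase complex that turns NRF1 over. VCP (-0.85), the ATPase that pulls NRF1 out of the membrane, and NGLY1 (-0.57), which removes its sugars, were lower. UFD1 (-0.26) and SYVN1 (-0.23) were lower with the water extract.

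Antigen processing genes, which share interferon control with the immunoproteasome, included 9 of 14 that were higher and 2 that were lower with the ethanol extract, where 34.7% of all genes were higher and 34.4% lower. The aminopeptidase ERAP1 was among the lower ones (-0.47, adjusted p = 2.58e-06), while HLA-E (0.79) and the peptide transporter TAP1 (0.91, adjusted p = 2.3e-10) were higher. TAP1 shares a promoter region with PSMB9, whose change was -0.05. With the water extract 5 of 14 were higher, among them HLA-E (0.30) and ERAP1 (0.33), and 2 were lower, HLA-C (-0.28) and B2M (-0.36), where 9.70% of all genes were higher and 11.4% lower.

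Few members passed with the single ingredients. Their batch had the larger common biological coefficient of variation (0.212 against 0.0444 for the extracts), so smaller changes could be missed. In the second batch 33 comparisons were made over 18324 genes, and 28 of them called 0 members in edgeR. Between 0 and 16 members per comparison reached an unadjusted p under 0.05 there, where between 346 and 4580 of the 18324 genes did. The 16 came from hederagenin against oleanolic acid at 0.4 µM, where 3211 genes reached it. In these 28 the smallest adjusted p of a member was 0.0576, and DESeq2 called members in 1, gallic acid at 2 µM, with 2. The members' median log2 change lay between -0.03 and 0.25 in these 28. Some of these 28 gained calls when only the compared groups were fitted or low-share libraries were left out, as given in the section on processing.

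Few genes of any kind passed in most of them. At 0.4, 2 and 10 µM the share of all genes past the test was 0.136%, 0.229% and 0.191% with paeoniflorin and 0.0382% at each dose with albiflorin. It was 0.0546% and 2.42% with hederagenin at 2 and 10 µM, and 0.180%, 0.322% and 4.45% with oleanolic acid at the 3 doses. It was 0.0655% with catechin at 10 µM, and 0.0709% and 0.611% with gallic acid at 0.4 and 2 µM. It was 0.278%, 0.0873% and 0.126% with paeonol and 0.0327%, 0.0218% and 0.0273% with benzoic acid at the 3 doses.

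Related ingredients were set against each other at matched dose, hederagenin against oleanolic acid, paeoniflorin against albiflorin, and gallic acid against benzoic acid. Between hederagenin and oleanolic acid at 10 µM 0 members and 0.0109% of all genes passed. At 0.4 and 2 µM of that pair, at every dose of paeoniflorin against albiflorin, and at 0.4 and 2 µM of gallic against benzoic acid, 0 members and 0.0% of all genes passed. The members' log2 differences in these 8 comparisons lay between -0.30 and 1.01, so equal levels are not shown.

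With gallic acid at 10 µM 5 members were called, all higher than in vehicle, a share (12.2%) near the 13.5% of all genes called in either direction. Of the 18324 genes 1560 were higher and 909 lower. The 5 members were PSMD4 (1.17), PSMD1 (0.88), PSMA3 (0.56), PSMC2 (0.51) and PSMC5 (0.32). PSMD4, the ubiquitin receptor, had 449, 121 and 311 CPM with gallic acid, against 126, 134 and 134 CPM in vehicle (adjusted p = 0.0298). PSMD1 had 650, 259 and 450 CPM with gallic acid, against 247, 243 and 249 CPM in vehicle (adjusted p = 0.00559). Replicates 1 and 3 were high and replicate 2 lay near or below vehicle for PSMD4. The mitochondrially encoded share was 2.40% and 3.25% in replicates 1 and 3, and 18.9% in replicate 2.

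The gallic acid calls depended on these libraries. Over the 41 members the median log2 level relative to vehicle was 0.51 and 0.30 in replicates 1 and 3, and -0.01 in replicate 2. With all libraries under 5% left out, so that 1 gallic acid library remained and was assumed to vary like the other groups, 0 members passed, and PSMD4 was at -0.11. The count was 0, 19 and 2 without gallic acid replicates 1, 2 and 3, and 2 without any 1 vehicle library. Against benzoic acid at 10 µM, PSMD4 (1.11), PSMD1 (0.69) and PSMC2 (0.43) were higher, where 8.70% of all genes were called in either direction. This count of 3 was 0, 22 and 0 without gallic acid replicates 1, 2 and 3, 1, 0 and 0 without benzoic acid replicates 1, 2 and 3, and 0 without the libraries under 5%.

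Of the other ingredient groups 3 had members past the test, 2 each. With catechin at 2 µM, PSMD1 (0.65) and PSMC5 (0.31) were higher, where 8.06% of all genes were called in either direction. PSMD1 had 364, 425 and 371 CPM against 247, 243 and 249 CPM in vehicle, with all 3 treated libraries above. With catechin at 0.4 µM, PSMD1 was higher (0.67) and PSMD3, a lid subunit, lower (-0.44), where 4.66% of all genes were called. PSMD3 had 154, 160 and 153 CPM with catechin, all under the 208, 215 and 212 CPM of vehicle (adjusted p = 0.0328).

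With hederagenin at 0.4 µM, PSMD1 (0.74) and PSMC5 (0.38) were higher, where 3.05% of all genes were called in either direction. PSMD1 had 391, 523 and 323 CPM against 247, 243 and 249 CPM in vehicle, with replicate 2 highest. The adjusted p of these 6 calls lay between 0.0321 and 0.0498. Without any 1 vehicle library none of the 3 groups kept a call. Leaving out 1 replicate number from every group left 0 calls in them, other than 2 with catechin at 2 µM without replicate 1. Leaving out the libraries under 5% gave 31 members with catechin at 2 µM and 14 with catechin at 0.4 µM. With hederagenin at 0.4 µM 1 treated library then remained, so no count is given for it. Leaving out the libraries with COL1A2 gave 9 with catechin at 2 µM. The shares of all genes called in these fits are not given here, so the counts do not single out the members.

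**Figure D4:**
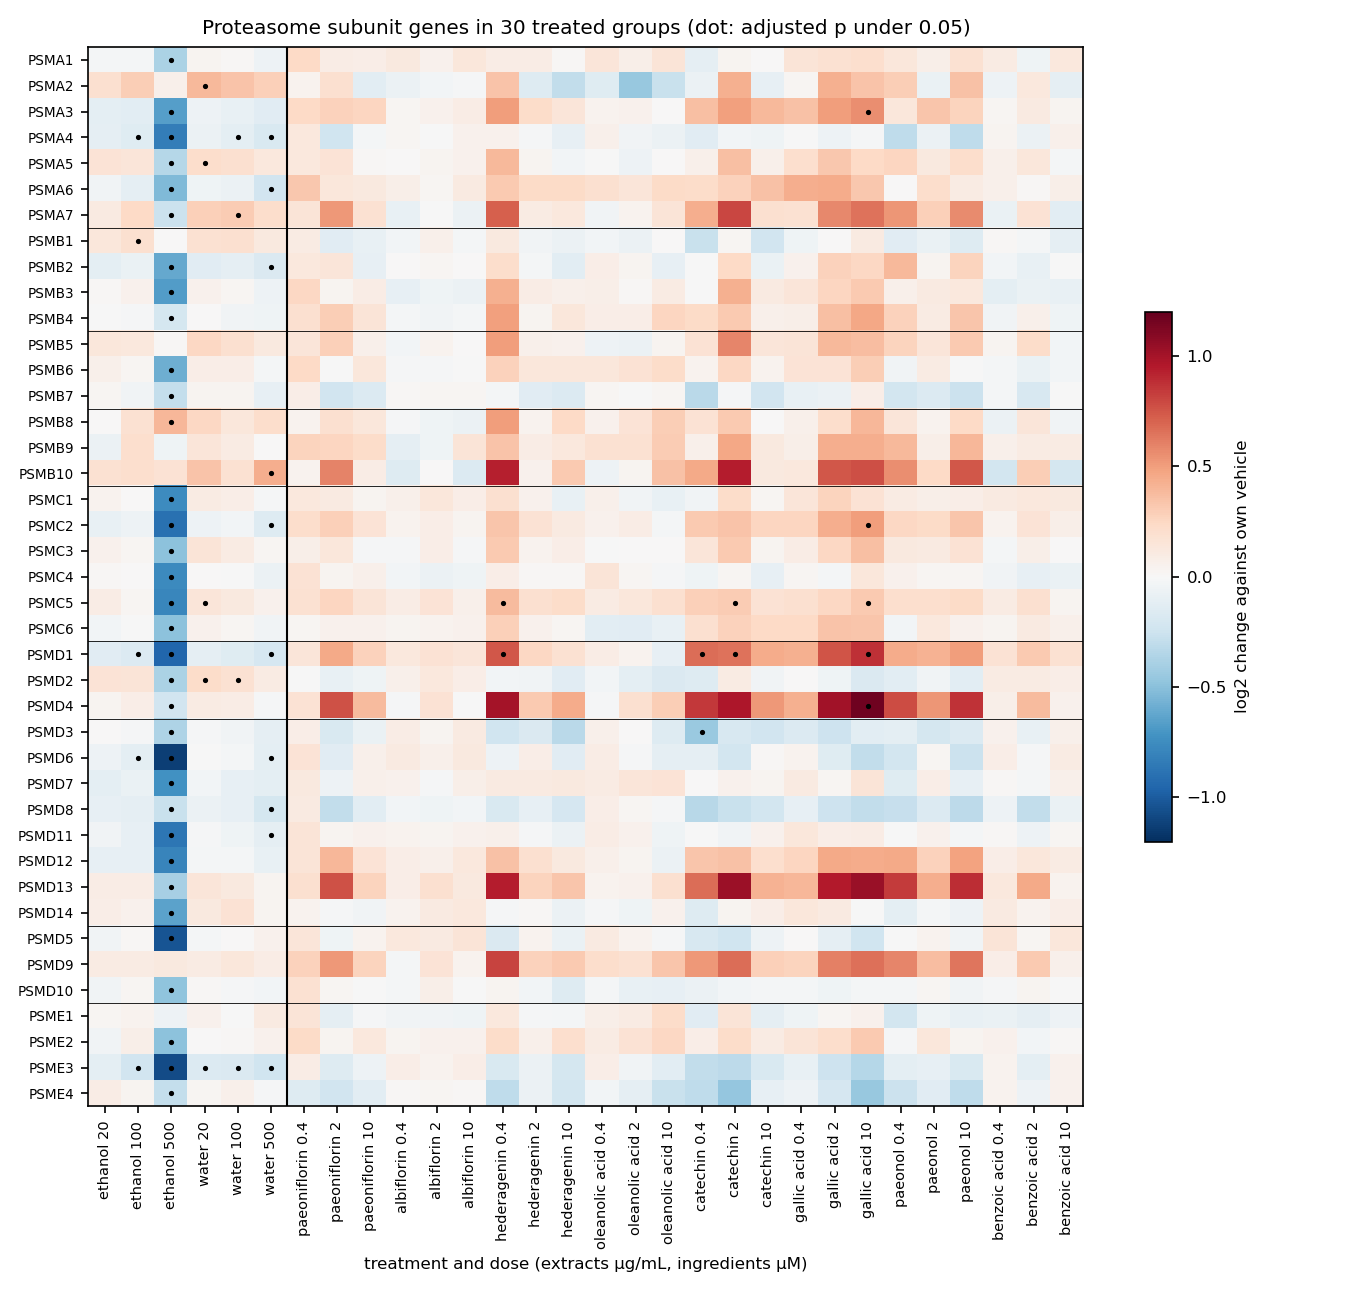
Log2 change of each of the 41 proteasome subunit genes (rows, by role) in the 30 treated groups against their own vehicle (columns, extracts in µg/mL and ingredients in µM), red for higher and blue for lower, with a dot where the adjusted p was under 0.05. The column of the ethanol extract at 500 µg/mL is blue in most rows, and PSMD4 reaches 1.17 in the column of gallic acid at 10 µM.

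Within the second batch the members' levels also differed between libraries of low and of higher mitochondrially encoded share. In the 16 libraries under 5% the members' median log2 level relative to vehicle ran from -0.14 to 0.58 and the interquartile width over members from 0.268 to 1.14. In the other 56 treated libraries the median ran from -0.06 to 0.36 and the width from 0.0751 to 0.371. In the 16 libraries PSMD4 had a median of 1.17, PSMD13 of 1.03, PSMB10 of 0.90, PSMD9 and PSMA7 of 0.77 and PSMD1 of 0.70, each above the vehicle mean in 16 of 16. PSME4 (-0.54), PSMD8 (-0.44), PSME3 (-0.44), PSMD3 (-0.38) and PSMD6 (-0.37) were below it in 16 of 16, and PSMB7 (-0.35) was above it in 3 of 16. These 12 are the genes with the 6 highest and 6 lowest medians, picked after their values were seen. In the other 56 libraries they had medians from -0.05 to 0.18. These are values of single libraries, given with no test.

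**Figure D5:**
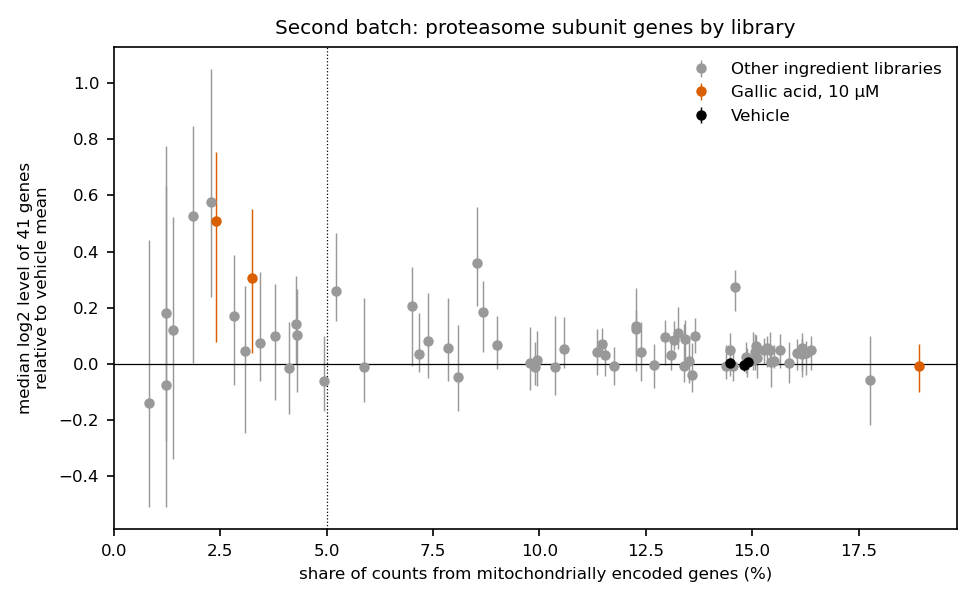
Median log2 level of the 41 proteasome subunit genes relative to the vehicle mean (points; bars span the interquartile range over genes) against the share of counts from mitochondrially encoded genes, 1 point per second-batch library, with a dotted line at 5%. Libraries left of the line spread widely, and the 3 gallic acid libraries at 10 µM (orange) lie at 0.51, 0.30 and -0.01.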

How the data were processed

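Expected counts per gene were deposited for 96 A549 libraries in 32 groups of 3. The authors' tools were, per the submitters' processing notes, RSEM 1.3.3, STAR, Trim Galore and FastQC on GRCh38 (hg38), with settings and annotation release not given in the sources used here. In RSEM, reads that match several genes are shared among them. The kit keeps strand, per the labels' protocols.

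The deposited expected counts (89.2% whole within 1e-09) were rounded. edgeR 4.0.16 (R 4.3.3) fitted each batch with all its groups, with TMM factors, filterByExpr and the quasi-likelihood F-test; p-values were adjusted by Benjamini-Hochberg over the 16854 and 18324 genes tested, with a threshold of 0.05. CPM are TMM-adjusted, and SE and 95% intervals come from the fit. There were 44 comparisons, each within a batch. The common biological coefficient of variation was 0.0444 for the extracts and 0.212 for the ingredients, so smaller changes could be detected with the extracts. The test was checked on counts simulated with a coefficient of variation of 0.05 in both batches. That lies far below the 0.212 of the ingredients, so the check does not cover the spread of that batch. No replicate pair was identical (0 of 96).

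The members and gene lists were chosen with earlier results of these data known. Named are PSMB5 to PSMB10 and PSME1 to PSME4, the 6 largest rises and falls past the test for each extract at 500 µg/mL, 4 and 4 between extracts, and up to 4 by p elsewhere; further members illustrate each role. Exon lengths and overlaps come from GENCODE v29, which may differ from the release the authors used. Same-numbered libraries deviated together (correlation of their deviations from the group means over 0.1 in all 3 pairs) for the ethanol extract at 100 µg/mL against vehicle (0.149, 0.131 and 0.249), for the water extract at 500 against 20 µg/mL (0.186, 0.174 and 0.347), and for 3 ingredient pairs. Alternatives were DESeq2 1.42.0, other size factors, no filter, only the groups compared, the replicate block, robust spread, and leaving out libraries. Counts of members under them are given without the share of all genes called in the same fit.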

Additional observations from a re-analysis of the deposited data

How the results depend on the processing

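For the ethanol extract at 500 µg/mL the count of members past the test was 33 to 34 against vehicle when single libraries were left out, 32 to 35 against the water extract and 34 to 36 against 20 µg/mL, and no other alternative moved these counts by over 1.5 times. The smaller extract counts depended on the processing. Leaving out single libraries gave 2 to 9 members for the ethanol extract at 100 µg/mL, 0 to 3 at 20 µg/mL, 5 to 11 for the water extract at 500 µg/mL, 0 to 10 at 100 and at 20 µg/mL, and 0 for 500 against 20 µg/mL. By the check on deviations, all 3 pairs of same-numbered libraries deviated together only in the comparisons named in the processing notes. In the other first-batch comparisons the replicate 3 libraries did so (correlations 0.275 to 0.533), but replicates 1 and 2 did not both. Whether the numbers mark a pairing is not settled by that check in any of the comparisons. With the replicate block the counts were 12 and 7 for the ethanol extract at 100 and 20 µg/mL, 16, 11 and 13 for the water extract at 500, 100 and 20 µg/mL, and 3 for 500 against 20 µg/mL. DESeq2 gave 8, 2 and 3 for the ethanol extract at 100 and 20 µg/mL and the water extract at 500 against 20 µg/mL. No filter gave 8, 3, 9 and 9 for the ethanol extract at 100 and 20 and the water extract at 100 and 20 µg/mL, and 1 for ethanol against water at 20 µg/mL. Robust spread gave 1 for the ethanol extract at 20 µg/mL, and fitting only the compared groups gave 2 for the water extract at 20 µg/mL. Without the share of all genes in each fit, a higher count does not single out the members.

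In the second batch the counts of called members rest on few libraries. Leaving out libraries gave 0 to 19 for gallic acid at 10 µM, 0 to 22 against benzoic acid, 0 to 2 for catechin at 2 µM, and 0 for catechin and hederagenin at 0.4 µM. Without a filter these were 3, 0, 0, 0 and 0. Fitting only the compared groups gave 0 for gallic acid at 10 µM, 0 against benzoic acid, 0 for hederagenin at 0.4 µM, 8 and 15 for catechin at 2 and 0.4 µM, 8 for albiflorin at 10 µM, 4 and 10 for hederagenin at 10 and 2 µM, 7, 3 and 3 for oleanolic acid at 10, 2 and 0.4 µM, 1 for catechin at 10 µM and 2 for benzoic acid at 10 µM. RLE factors gave 1 for catechin at 2 and at 0.4 µM. DESeq2 gave 9 for catechin at 2 µM, 8 for gallic against benzoic acid at 10 µM and 2 for gallic acid at 2 µM. Without the COL1A2 libraries catechin at 2 µM had 9 and gallic against benzoic acid at 10 µM had 5. Without libraries of low mitochondrially encoded share the counts were 0 for gallic acid at 10 µM and 0 against benzoic acid, 31 and 14 for catechin at 2 and 0.4 µM, 1 and 6 for paeoniflorin at 10 and 0.4 µM, 1 and 1 for hederagenin at 10 and 2 µM, 8 for oleanolic acid at 10 µM, 3 and 7 for gallic acid at 2 and 0.4 µM, and 1 each for gallic against benzoic acid and paeoniflorin against albiflorin at 0.4 µM. The shares of all genes called in these other fits are not given here, so higher counts do not single out the members. The cause of these moves was not tested.

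Signs turned only for members near 0 or resting on low-share libraries. With the ethanol extract at 500 µg/mL, PSMB5 was at -0.000263 without a filter and between -0.047 and 0.0998 without single libraries, and PSMB9 between -0.152 and 0.066. With the water extract at 500 µg/mL, PSMB9 was at -0.00159 with RLE factors, -0.00221 in DESeq2 and -0.00201 with only the compared groups. Without single libraries it lay between -0.080 and 0.054, PSMB6 between -0.052 and 0.037 and PSME4 between -0.040 and 0.016. Without low-share libraries PSMD4 and PSMC5 were at -0.11 and -0.054 with gallic acid at 10 µM, and PSMD1 and PSMD4 at -0.11 and -0.16 against benzoic acid. The immunoproteasome genes stood lowest, at about 5 CPM in first-batch vehicle libraries.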

Other observations

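Antisense genes and pseudogenes that carry a subunit's symbol lie outside the 41 genes. With the ethanol extract at 500 µg/mL, 4 of the 6 tested passed against vehicle, near the share of all genes (11654 of 16854). PSMD5-AS1 had 17.5 ± 0.79 CPM with the ethanol extract and 12.7 ± 0.87 CPM in vehicle (SD, n = 3 each), a log2 change of 0.47 (edgeR adjusted p = 1.46e-06), while PSMD5 itself had a change of -1.04. PSMD6-AS2 had 1.37 ± 0.27 and 0.779 ± 0.14 CPM (0.81, edgeR adjusted p = 0.00366), while PSMD6 had -1.13. PSMA3-AS1 had 17.1 ± 0.74 and 26.5 ± 1.5 CPM (-0.63, edgeR adjusted p = 2.03e-07), beside -0.66 for PSMA3. The pseudogene PSMC1P1 had 5.77 ± 0.98 and 8.53 ± 0.23 CPM (-0.57, edgeR adjusted p = 0.00134), beside -0.76 for PSMC1, whose reads it can share. PSMB8-AS1, which overlaps exons of PSMB8, had 0.554 ± 0.22 and 0.251 ± 0.043 CPM (1.13, edgeR adjusted p = 0.0516) and PSME2P2 had 0.414 ± 0.18 and 0.575 ± 0.16 CPM (-0.46, edgeR adjusted p = 0.28), and neither passed. With the water extract at 500 µg/mL none of the 6 passed, where 9.70% of all genes were higher and 11.4% lower. Whether strand entered the counting is not given in the sources used here, so an antisense gene and its partner cannot be told apart where they overlap.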
